A study of Mus musculus with 99 samples.

Results

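Transcript levels of proteasome genes were read in hearts of chow-fed male mice of 99 strains, each on a single expression array (Affymetrix HT_MG-430A). The genes are those whose platform symbol starts with Psma, Psmb, Psmc, Psmd, Psme, Psmf or Psmg, without Psmb8 and Psmb9. They numbered 43 of the 11725 genes named on the array and were read from 61 probe sets, the brightest standing for each gene. Of the 43, 41 encode subunits of the proteasome or factors that assemble, activate or inhibit it. The other members, Psmc3ip and Psme3ip1, share only the prefix. Psmc3ip is a partner of the meiotic recombinases and Psme3ip1 binds Psme3. The symbols Psma3, Psmb11, Psmc6, Psmd10, Psme2b and Psme4 were not analysed here.

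The arrays came from 28 classical inbred strains and from 4 panels of recombinant inbred strains, with 30 strains in BXD, 15 in AXB, 13 in BXA and 11 in BXH. CAST/EiJ, which is wild-derived, and B6cC3-1/KccJ had 1 array each. All were untreated, and the growth protocol in the labels puts all males at 16 weeks. A separate age label runs from 16 to 113 weeks along the sample order and differs by group (16 to 50 in BXH, 56 to 109 in BXD, 58 to 113 in AXB, 67 to 110 in BXA, 22 to 55 in the classical strains). It goes against the protocol and was not used, so whether the groups differ in age is not settled here. Every panel strain is fixed for either of 2 parental alleles at each locus. All 4 panels have C57BL/6J as a parent, crossed with DBA/2J in BXD, with A/J in AXB and BXA, and with C3H/HeJ in BXH. The BXD set includes BXD29-Tlr4<lps-2J>/J and BXD24/TyJ-Cep290<rd16>/J, which carry the alleles in their names. Among the classical strains BTBR T<+> tf/J also has alleles in its name. AXB19/PgnJ, AXB19a/PgnJ and AXB19b/PgnJ, and the BXD24 pair, are near-isogenic by name, and each family was averaged, so that 29 BXD and 13 AXB families were compared.

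The proteasome is the protease that degrades ubiquitin-tagged proteins. Its 20S core is a barrel of stacked rings in which alpha subunits form the gate and beta subunits carry the cutting sites, and a 19S regulator, built of a base with a ring of ATPases and a lid, recognises, unfolds and feeds in the substrate. Under interferon some beta subunits are exchanged for cytokine-induced forms (Psmb8, Psmb9 and Psmb10), and the 11S activator of Psme1 and Psme2 can take the place of the 19S regulator. In heart muscle this pathway clears damaged and excess sarcomere proteins, and the transcription factor Nfe2l1 is known to raise proteasome genes together when the protease is inhibited.

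A strain had only 1 array, so errors and p-values hold both the spread among strains and that of the technique. Values are RMA log2 intensities. Their level depends on the probes, so levels are compared between strains and not between genes. A bulk heart sample cannot tell fewer cells of a type from less RNA per cell. The cardiomyocyte list (8 of 9 markers on the array) had a mean between 12.62 and 12.87 on all 99 arrays. Marker lists of other organs exceeded those of the median array by over 2 log2 units on 40 arrays. These were 10 of 28 classical, 10 of 30 BXD, 6 of 15 AXB, 5 of 13 BXA and 8 of 11 BXH arrays and the CAST/EiJ array. Airway markers passed this level on 28 arrays, liver on 14, fast muscle on 10, squamous epithelium on 7, thymus on 3 and thyroid on 0. The title of each array is a number of unstated meaning. Title numbers were treated as a possible batch, by repeating a comparison within their lower and upper ranges, split at the median. The Gapdh control, a measure of RNA and labelling quality, is the level of its control probe set at the end of the transcript minus that at its start, and the actin control is built likewise.

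The sequences just upstream of 4 of these genes are shown because Psmb6, Psmc4 and Psma7 carried the largest called differences between strain panels and because Psmd12 was set against Nfe2l1. Each is the 250 bases before the annotated start, written in the direction of the gene, from RefSeq on GRCm38.p6. Capitals mark the core of the antioxidant response element (TGACNNNGC on either strand), the motif Nfe2l1 binds, or a CCAAT box.
Psmb6, chr11:70525107-70525356, plus strand: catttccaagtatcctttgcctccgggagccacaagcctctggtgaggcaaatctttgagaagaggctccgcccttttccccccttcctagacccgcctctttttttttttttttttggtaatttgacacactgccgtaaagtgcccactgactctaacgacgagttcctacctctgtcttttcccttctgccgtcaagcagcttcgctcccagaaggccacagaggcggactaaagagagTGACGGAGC
Psmc4, chr7:28050093-28050342, minus strand: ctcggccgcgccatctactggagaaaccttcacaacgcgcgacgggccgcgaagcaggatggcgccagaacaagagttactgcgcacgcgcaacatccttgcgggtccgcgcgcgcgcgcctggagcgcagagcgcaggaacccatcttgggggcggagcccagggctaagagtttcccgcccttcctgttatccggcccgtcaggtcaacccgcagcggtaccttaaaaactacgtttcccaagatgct
Psma7, chr2:180042465-180042714, minus strand: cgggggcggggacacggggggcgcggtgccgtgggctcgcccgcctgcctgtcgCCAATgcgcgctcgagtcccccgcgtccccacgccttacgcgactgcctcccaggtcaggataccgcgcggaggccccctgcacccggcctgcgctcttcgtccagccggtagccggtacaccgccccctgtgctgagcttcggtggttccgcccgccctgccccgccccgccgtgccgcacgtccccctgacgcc
Psmd12, chr11:107479278-107479527, plus strand: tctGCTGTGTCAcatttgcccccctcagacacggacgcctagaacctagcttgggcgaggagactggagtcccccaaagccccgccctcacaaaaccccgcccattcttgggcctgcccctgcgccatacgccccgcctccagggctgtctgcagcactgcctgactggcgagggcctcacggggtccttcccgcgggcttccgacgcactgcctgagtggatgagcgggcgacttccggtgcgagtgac

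In Psmb6 the element ended next to the start of the gene, and in Psmd12 it lay on the opposite strand at the far end of the window. Psma7 held a CCAAT box, and Psmc4 held none of the motifs searched. Windows of 300 bases (250 before and 50 after the start) were found for 35 members. TGACNNNGC was present in 4 of them (Psmb5, Psmb6, Psmd12 and Psmd9), or 11.4%, beside 13.99% of all 27025 genes. CCAAT, searched on both strands, was in 12 members (34.3%) beside 41.1% of all genes. The core of the interferon-stimulated response element, TTTCNNTTTC on either strand, was in 5 members (14.3%; Psmb3, Psmd4, Psmd9, Psme1 and Psmg4) beside 3.99% of all genes. Each motif was searched on its own, so matches of different motifs may overlap, and they describe letters in a window, not bound sites.

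Of the 43 members, 42 passed the filter on dim genes. Psma8, the testis form of an alpha subunit, had a mean of 3.45 log2 units, under the filter level of 3.59. The 6 alpha ring genes had means from 9.01 to 9.89, and the 7 constitutive beta ring genes from 7.19 (Psmb3) to 10.50 (Psmb4). The 5 ATPases of the 19S base ran from 8.38 (Psmc4) to 9.86 (Psmc3), the 3 other base genes from 9.12 to 9.77 and the 8 lid genes from 7.43 (Psmd3) to 9.78 (Psmd11). Assembly factors had means of 4.64 to 7.21 for the 20S chaperones Psmg1 to Psmg4 and 5.76 to 6.14 for the 19S chaperones Psmd9 and Psmd5. The activators Psme1, Psme2 and Psme3 had means of 9.52, 8.48 and 7.41, and the inhibitor Psmf1 had 6.13.

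**Figure D1:**
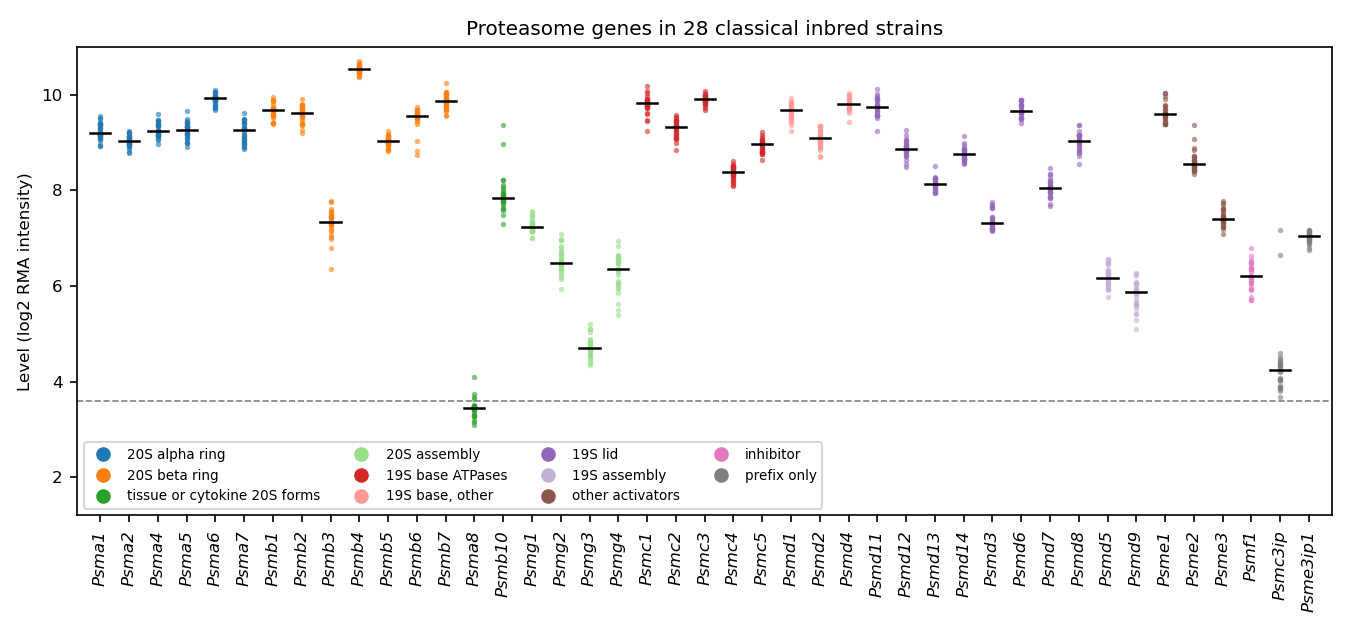
Level of each of the 43 members (vertical axis, log2 RMA intensity) in the 28 classical inbred strains, 1 point per strain, coloured by role, with the median as a bar and the filter level of 3.59 as a dashed line. Psma8, with a mean of 3.45, lies lowest, and single strains of Psmc3ip, Psmb10 and Psmb6 stand apart from the rest of their columns.

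Over the classical strains the median SD of the 42 members was 0.18 log2 units (jackknife SE over strains 0.013), and that of all 7513 tested genes was 0.23. The SD of 34 of the 42 members lay under the median of all genes. BXD families gave 0.16 for members and 0.21 for all genes, AXB with BXA 0.12 and 0.20, and BXH 0.13 and 0.22. Among genes with a mean over 8 log2 units, 28 members had a median SD of 0.16 in the classical strains, beside 0.18 for all 1607 such genes. The SD within the near-isogenic families was pooled from 3 AXB19 and 2 BXD24 arrays, each taken around the mean of its family. Its median was 0.12 for the members, beside 0.20 for all genes.

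The steadiest members were parts of the complex itself. Psmb4, a beta subunit without a cutting site, ran from 10.38 (C3H/HeJ) through a median of 10.53 to 10.70 (KK/HlJ), with an SD of 0.084. The ATPase Psmc3 had an SD of 0.091, from 9.68 in NON/ShiLtJ through 9.91 to 10.08 in I/LnJ. Psmb5, the chymotrypsin-like subunit, had an SD of 0.11, from 8.83 in NZW/LacJ through 9.04 to 9.24 in SEA/GnJ. No strain stood apart from the rest for these 3 genes. Psme3ip1, which shares only the prefix, came next with an SD of 0.107, beside 0.106 for Psmb5.

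The 6 members of largest spread lay outside the constitutive core, apart from Psmb3. All had means under 8 log2 units: Psmc3ip 4.15, Psmd9 5.76, Psmg4 6.08, Psmf1 6.13, Psmb3 7.19 and Psmb10 7.87. Genes over 8 had a smaller median SD (0.18) than all tested genes (0.23), and the part of level in these spreads was not tested. Psmc3ip had an SD of 0.76, with a lowest value of 3.67 (LP/J), a median of 4.25 and a highest of 7.17. NOD/ShiLtJ at 7.17 and FVB/NJ at 6.65 lay far above the next strain, 129X1/SvJ at 4.59, and the SD was 0.63 without the arrays that carry organ markers, NOD/ShiLtJ among them. Psmb10, the cytokine-induced beta subunit, ran from 7.29 (NZW/LacJ) through 7.84 to 9.36 (I/LnJ), with an SD of 0.41. I/LnJ and SWR/J, at 8.98, were the high strains, and neither array carried organ markers. Both were also the highest strains for Psmb8 (8.09 and 8.07, median 5.73), Psmb9 (7.39 and 7.79, median 5.13) and Psme2 (9.37 and 9.08, median 8.55).

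Psmg4, a chaperone of the alpha ring, ran from 5.40 (BUB/BnJ) through 6.36 to 6.94 (KK/HlJ), with an SD of 0.39. Psmd9 ran from 5.10 (DBA/2J) through 5.87 to 6.27 (C57L/J), with an SD of 0.30 and C3H/HeJ second lowest at 5.29. Psmb3 ran from 6.35 (NZW/LacJ) through 7.33 to 7.77 (MA/MyJ), with an SD of 0.29. Its lowest strain lay below the next, SWR/J at 6.79, and carried organ markers. Without such arrays the SD of Psmb3 was 0.24. Psmf1, the inhibitor, had an SD of 0.28, from 5.70 (LP/J) through 6.21 to 6.80 (NOD/ShiLtJ), and its strains formed a continuous series.

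**Figure D2:**
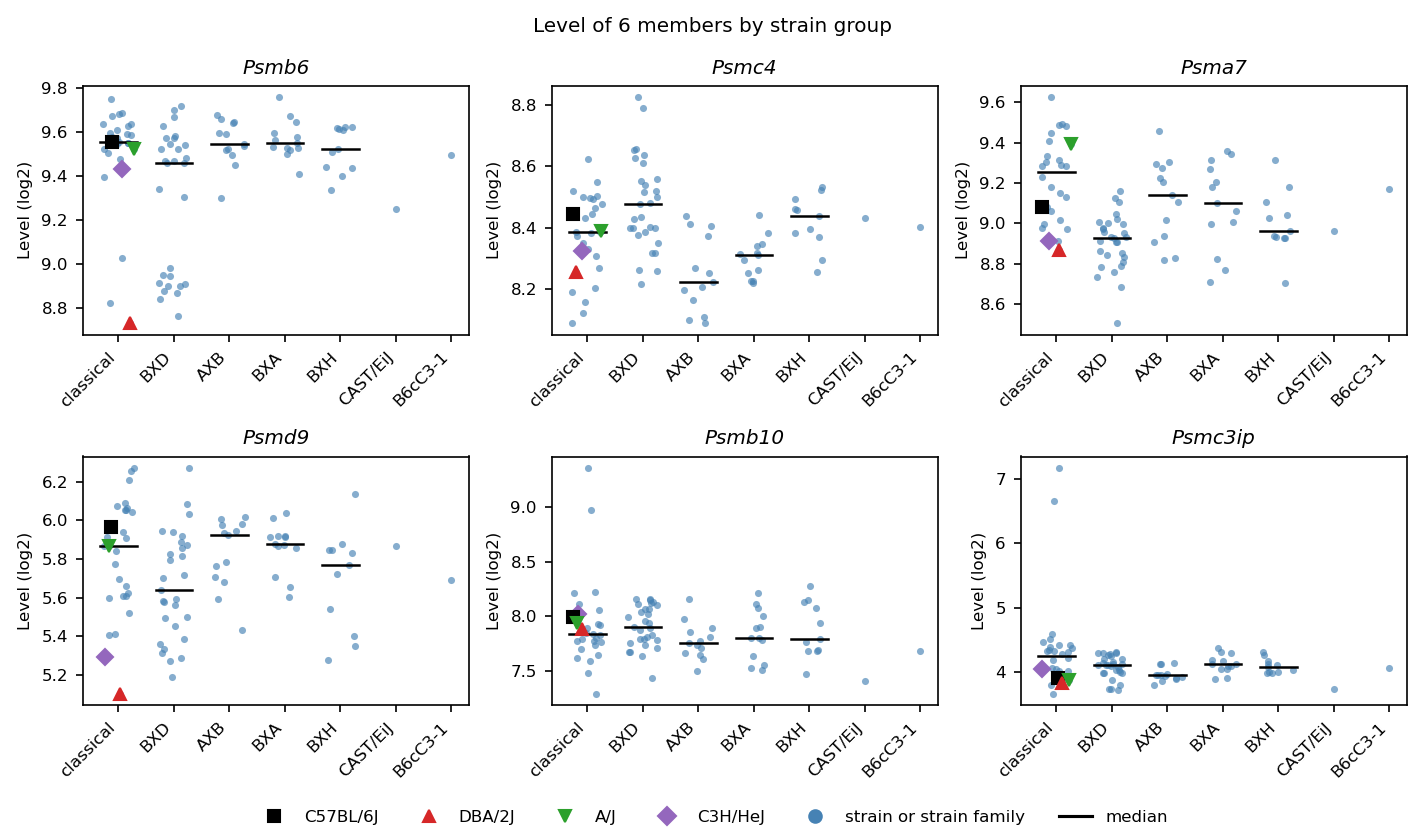
Level (vertical axis, log2 RMA intensity) of Psmb6, Psmc4, Psma7, Psmd9, Psmb10 and Psmc3ip by strain group, 1 point per strain or near-isogenic family, with the group median as a bar and the panel parents as black squares, red and green triangles and purple diamonds among the classical strains. Psmb6 falls into separate low and high clusters in BXD, with DBA/2J at 8.73 and C57BL/6J at 9.56.

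The first comparison set BXD against AXB with BXA, panels that share the C57BL/6J parent and differ in the other parent, DBA/2J or A/J. In BXD the ATPase Psmc4 was higher, and the core subunits Psmb6 and Psma7, the ATPase Psmc2 and the 19S chaperone Psmd9 were lower. These 5 of 42 members (1 higher, 4 lower) passed a Benjamini-Hochberg adjusted p of 0.05 in limma over 7513 genes, and are termed called. Over all genes 14.6% were called, 8.59% higher and 6.04% lower, so the share of members called, 11.9%, was near the background. Without the arrays with organ markers 4 were called, Psma7 and Psmc4 again and Psmd3 and Psmg4 in addition. The median difference of the members was -0.03 log2 units and that of all genes 0.01. With each array's median subtracted, 7 members were called, 1 higher and 6 lower, while calls over all genes turned from 645 higher and 454 lower to 407 higher and 723 lower.

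Psmc4, which unfolds substrates in the base ring, ran in BXD from 8.22 through a median of 8.48 to 8.83, and in AXB and BXA from 8.09 through 8.27 to 8.44. The ranges overlapped, but 15 of the 29 BXD families lay above every AXB and BXA family. The difference was 0.20 log2 units (SE 0.036, limma adjusted p = 7.3e-05), and the second probe set of the gene gave 0.18. Psmc4 stayed called under all 11 alternative settings on the log2 scale (filter, probe sets, scaling, variance model, arrays left out and covariates), with differences from 0.17 to 0.24 and adjusted p from 1.43e-05 to 0.034. The difference was 0.21 in both the lower and the upper range of title numbers. The parental arrays were C57BL/6J at 8.44, DBA/2J at 8.26 and A/J at 8.39, so the DBA/2J parent lay below the A/J parent while the BXD families lay above.

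Psmb6, the caspase-like subunit that Psmb9 replaces under interferon, ran in BXD from 8.77 through 9.46 to 9.72, and in AXB and BXA from 9.30 through 9.55 to 9.76. Of the BXD families, 11 lay below every AXB and BXA family, and the other BXD families lay within their range. The difference was -0.27 (SE 0.065, adjusted p = 0.003 in limma), with an SD of 0.33 in BXD and 0.094 in AXB and BXA. It was -0.30 in the lower range of title numbers (adjusted p = 0.043) and -0.21 in the upper range (0.28). Without the arrays with organ markers it was -0.25 (0.062). Over the alternatives the adjusted p ran from 0.00127 to 0.28.

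Psma7, an alpha subunit, ran in BXD from 8.51 through 8.93 to 9.16, and in AXB and BXA from 8.71 through 9.12 to 9.45. The groups overlapped, and 12 of 26 AXB and BXA families lay above every BXD family. The difference was -0.19 (SE 0.047, adjusted p = 0.00297 in limma), and the second probe set gave -0.21. Within the title ranges it was -0.21 and -0.19, with adjusted p of 0.081 and 0.091 (0.00132 to 0.13 over all alternatives). The parental arrays stood at 9.08 for C57BL/6J, 8.87 for DBA/2J and 9.39 for A/J.

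Psmc2, an ATPase of the base, ran in BXD from 8.78 through 9.14 to 9.52, and in AXB and BXA from 9.01 through 9.29 to 9.53. The difference was -0.15 (SE 0.043, adjusted p = 0.012 in limma). The groups overlapped over most of their range, and 24 of 29 BXD families lay below the AXB and BXA median. With the Gapdh control as a covariate the difference fell to -0.05 (adjusted p = 0.52), and it was not called under 4 of 11 alternatives (adjusted p from 0.00486 to 0.52). Within the lower and upper title ranges it was -0.12 and -0.18.

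Psmd9, which helps assemble the ATPase ring, ran in BXD from 5.19 through 5.64 to 6.27, and in AXB and BXA from 5.43 through 5.89 to 6.04. Here 7 BXD families lay below and 2 above the whole AXB and BXA range. The difference was -0.18 (SE 0.061, adjusted p = 0.036 in limma), and -0.16 and -0.20 within the lower and upper title ranges. It was not called under 7 of 11 alternatives (adjusted p from 0.014 to 0.27). Its second probe set, at a mean of 3.25 near the floor, gave 0.03, the opposite sign.

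The remaining members were not called. The 7 beta ring differences were all negative, from -0.27 to -0.03, of which only Psmb6 was called. In the alpha ring 4 of 6 were negative. None of the 8 lid genes, whose differences ran from -0.08 to 0.11, and none of the 3 activators, from -0.02 to 0.04, was called. Psmg4 differed by -0.24 with an adjusted p of 0.094 in limma.

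Measures of the arrays moved with this comparison. The Gapdh control was -0.22 ± 0.085 (SD, 30 arrays) in BXD and -0.31 ± 0.082 (SD, 28 arrays) in AXB and BXA. With it as a covariate 2 members were called, Psmc4 and Psmb6. The median difference of the members was then 0.012 log2 units and that of all genes 0.011. Positive differences were then found for 24 of 42 members and 54.9% of all genes, against 17 of 42 and 55.5% without the covariate. The endothelial list (6 of 6 markers on the array, all above the filter on dim genes) had means of 7.30 to 7.98 in BXD. In AXB these ran from 7.05 to 7.65, and in BXA from 7.01 to 7.64. The part of the endothelial shift in the result was not tested.

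**Figure D3:**
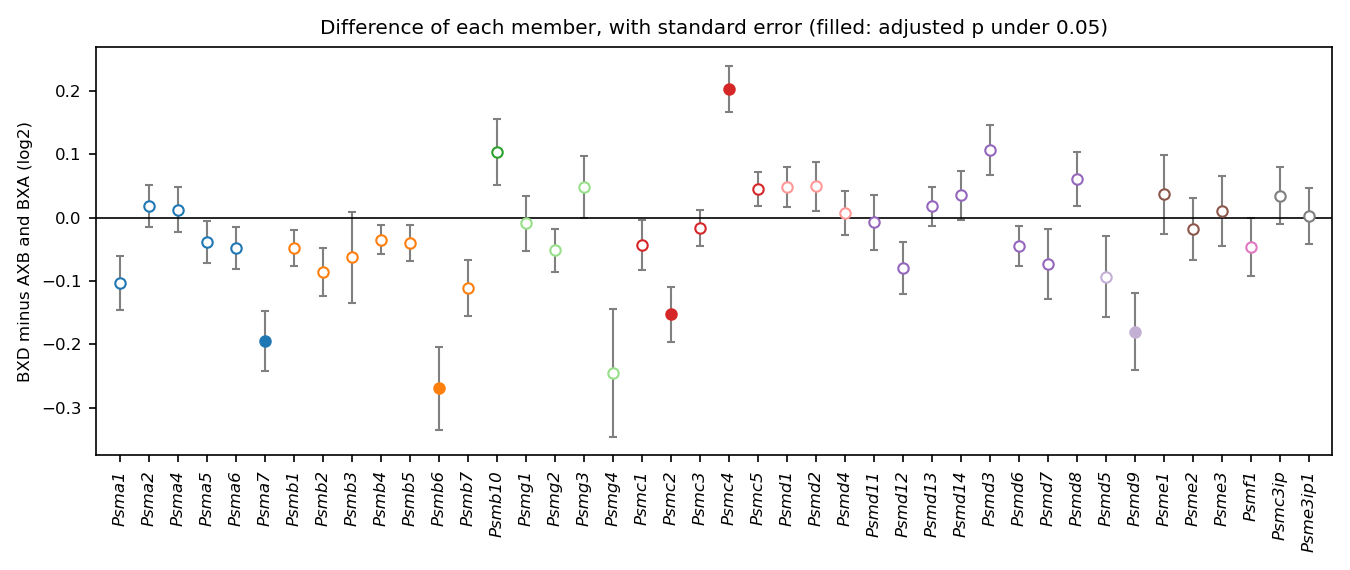
Difference of each of the 42 tested members between BXD and AXB with BXA (vertical axis, log2, first minus second), with its standard error from limma as bars, coloured by role as in the plot of levels, and filled where the adjusted p was under 0.05. Psmc4 stands above 0 at 0.20 and Psmb6, Psma7, Psmd9 and Psmc2 below it, while most members lie within 0.1 of 0.

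Within BXD, Psmb6 split into clusters. The 29 families left a gap of 0.32 log2 units, with 11 families between 8.77 and 8.99 and 18 between 9.31 and 9.72. The parents lay on either side, DBA/2J at 8.73 and C57BL/6J at 9.56. Without the families that carry organ markers, 7 stood below the gap and 12 above it. Psmd4 and Psmb3 had wider gaps, of 0.37 and 0.36, but these set apart 1 and 3 families. Only the widest gap of each member was measured. Among members whose widest gap left 4 or more families on the smaller side, Psmc2 (0.12, 4 families) and Psmc3ip (0.10, 5 families) came next. Narrower gaps inside the other members were not examined. Among the classical strains DBA/2J, SM/J (8.83) and SEA/GnJ (9.03) were lowest for Psmb6, followed by C58/J at 9.40, and the BXH strains ran from 9.34 to 9.62. The gene had 1 probe set, and whether strain sequences match its probes was not analysed here.

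Of 36 tested genes of the ubiquitin pathway outside the members, 3 were higher and 4 lower in BXD than in AXB and BXA, beside the 14.6% of all genes called (8.59% higher and 6.04% lower). Within the lower and upper title ranges 3 and 2 of them were called. Among other proteasome partners Txnl1, a thioredoxin of the 19S regulator, was lower (-0.14, SE 0.040, adjusted p = 0.012 in limma), 1 of 7 genes. Among 8 shuttle and segregase genes Ubqln4, a ubiquitin shuttle, was higher (0.21, 0.013). Among 8 ubiquitin, E1 and E2 genes Uba3, of the enzyme that activates Nedd8, was lower (-0.33, 0.00265), and so was the conjugating enzyme Ube2d3 (-0.20, 0.00014). Among 7 ubiquitin ligase genes Rbx1, the ring subunit of cullin ligases, was higher (0.12, 0.040). Among 6 regulators Nfe2l1 was higher (0.28, 0.010) and the stress factor Atf4 lower (-0.29, 0.0079). Nfe2l1 ran from 7.48 through 8.52 to 8.78 in BXD and from 7.39 through 8.20 to 8.68 in AXB and BXA, and the groups overlapped over most of that range. Ube2d3 ran from 9.69 through 10.07 to 10.37 in BXD and from 10.06 through 10.26 to 10.44 in the other panels, again with overlap. With the Gapdh control as a covariate 0 of the 36 were called.

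AXB was compared with BXA, reciprocal panels of the same parents. No member and no other gene was called by limma (0 of 7513, background 0%), while 786 genes and 4 members had an unadjusted p under 0.05. On normal scores (ranks within each gene turned into normal values) limma called 0 as well, with 755 genes at an unadjusted p under 0.05. The members of smallest p were Psmc3ip and Psmg2, a chaperone that pairs with Psmg1. Psmc3ip ran from 3.81 through 3.95 to 4.14 in AXB and from 3.90 through 4.13 to 4.37 in BXA, a difference of -0.16 (SE 0.052, adjusted p = 0.30 in limma, not called). Psmg2 ran from 6.26 through 6.36 to 6.60 in AXB and from 6.32 through 6.54 to 6.75 in BXA, a difference of -0.13 (SE 0.046, adjusted p = 0.35, not called). Both pairs of groups overlapped. Within the lower and upper title ranges Psmc3ip differed by -0.16 and -0.15, and Psmg2 by -0.11 and -0.15. Of the 36 pathway genes 0 were called.

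BXH was compared with the classical strains to set this panel of C57BL/6J and C3H/HeJ descent beside a varied set of strains. Over all genes 0.293% were called (22 genes, 0.0799% higher and 0.213% lower) and 0 of 42 members. At an unadjusted p under 0.05 stood 6 of 42 members and 849 of 7513 genes. On normal scores 0 members and 0 genes were called, with 7 members and 834 genes at an unadjusted p under 0.05. Psma7 ran from 8.70 through 8.96 to 9.32 in BXH and from 8.87 through 9.25 to 9.62 in the classical strains, a difference of -0.21 (SE 0.070, adjusted p = 0.19 in limma, not called). Psmg1, a chaperone of the alpha ring, ran from 6.87 through 7.12 to 7.45 and from 7.001 through 7.24 to 7.57, a difference of -0.16 (SE 0.058, adjusted p = 0.25, not called). Both ranges overlapped. With only the 4 BXH arrays that have title numbers of the classical range, against the 28 classical strains, the differences were -0.20 for both genes. Of the 36 pathway genes 0 were called.

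BXH was also compared with BXD, panels that share the C57BL/6J parent. The families of each also enter a comparison above. Psmb1, a beta subunit without a cutting site, was higher in BXH and was the only member called, 1 of 42, beside 10.6% of all genes (4.3% higher and 6.34% lower). With array medians subtracted, the calls over all genes turned from 323 higher and 476 lower to 400 higher and 335 lower, and Psmb1 stayed called. It ran from 9.48 through 9.72 to 9.92 in BXH and from 9.35 through 9.58 to 9.80 in BXD. The groups overlapped, and 10 of 11 BXH strains lay above the BXD median. The difference was 0.15 (SE 0.044, adjusted p = 0.029 in limma). It was not called without the arrays with organ markers (0.16, adjusted p = 0.31 in limma), which left only 3 BXH strains and 19 BXD families. Nor was it called with the Gapdh control (0.09, 0.22) or with the actin control (0.13, 0.063). Over all alternatives the adjusted p ran from 0.016 to 0.31. Title numbers of these panels do not overlap (3 to 394 and 473 to 670), so array order and panel cannot be told apart. Macrophage markers (8 genes, all on the array) had means of 5.78 to 6.79 in BXH and 4.98 to 6.11 in BXD. Airway markers (7 of 8 on the array) had means of 3.25 to 10.68 and 3.24 to 9.40, high on 8 of 11 and 6 of 30 arrays. The endothelial list ran from 7.13 through 7.30 to 7.71 in BXH and from 7.30 through 7.58 to 7.98 in BXD. Their part in the result was not tested. Of the pathway genes Ubqln4 (-0.44, adjusted p = 0.00072) and Nfe2l1 (-0.31, 0.027) were lower in BXH in limma, and 0 of the 36 were called without the arrays with organ markers.

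The panel parents were single arrays, so their differences carry no test, and all are set against the same C57BL/6J array. DBA/2J lay below C57BL/6J for 35 of 42 members, with a median difference of -0.24, while 49.1% of all genes were lower. For C3H/HeJ it was 33 of 42 (median -0.17, all genes 46.8%), and for A/J 27 of 42 (median -0.06, all genes 47.3%). The shared C57BL/6J array was itself high: 25 of 29 constitutive 20S and 19S genes lay above the mean of the classical strains. Organ markers were high on the DBA/2J and A/J arrays and not on those of C57BL/6J and C3H/HeJ. The Gapdh control was -0.41 for C57BL/6J, -0.37 for A/J, -0.22 for DBA/2J and -0.18 for C3H/HeJ. The part of organ markers and of this control in the parental differences was not tested.

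The 2 largest differences from C57BL/6J are given for each parent. For DBA/2J they were Psmd9 (5.10 against 5.96 in C57BL/6J, -0.86) and Psmb6 (-0.82). Of the 29 BXD families, 19 lay above and 10 below the parental midpoint for Psmd9, and 18 above and 11 below for Psmb6. For A/J they were Psmg4 (6.37 against 5.63, 0.73) and the lid subunit Psmd7 (7.95 against 8.47, -0.51). Of the 26 AXB and BXA families 16 lay above the midpoint for Psmg4, but only 1 for Psmd7. For C3H/HeJ they were Psmg4 (6.48, 0.85) and its partner Psmg3 (5.10 against 4.35, 0.75), with 7 and 3 of 11 BXH strains above the midpoint.

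**Figure D4:**
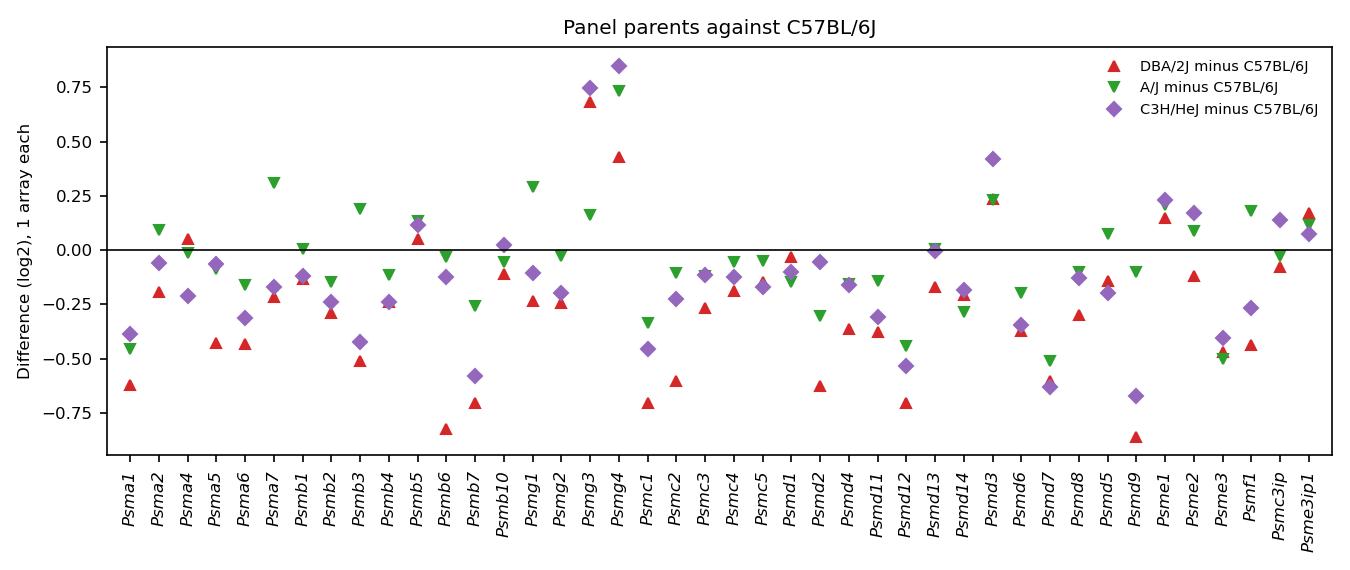
Difference of each of 42 members between DBA/2J (red), A/J (green) or C3H/HeJ (purple) and C57BL/6J (vertical axis, log2, 1 array each). Most points lie below 0, with Psmd9 at -0.86 and Psmb6 at -0.82 for DBA/2J, and Psmg4 above 0 for A/J at 0.73 and C3H/HeJ at 0.85.

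The CAST/EiJ array lay outside the range of the 28 classical strains for 15 of 42 members (35.7%), 11 below and 4 above, beside 27.5% of all tested genes. Psmd8, a lid subunit, was farthest above the range (9.97 against 8.55 to 9.38), and Psmb1, Psmd11 and Psmf1 were also above it. Psme2, of the 11S activator, was farthest below (7.72 against 8.34 to 9.37). The chaperone Psmg2 (5.43 against 5.94 to 7.10), the ATPase Psmc3 (9.22 against 9.68 to 10.08) and the lid subunit Psmd12 (8.15 against 8.50 to 9.26) followed. The second probe set of Psmg2 was also below its range (5.62 against 5.66 to 6.54), but that of Psme3 lay inside its range (5.23 in 4.92 to 5.61), and so did both other probe sets of Psmd11 (8.56 in 7.91 to 8.72 for the brighter) and all 3 others of Psmf1 (4.48 in 3.49 to 4.57 for the brightest). Psmg2 was thus the only 1 of the 4 outside members with further probe sets whose others lay outside too. The remaining outside members, Psme2, Psmc3, Psmd12 and Psmd8 among them, had 1 probe set each. Whether CAST/EiJ sequences match the probes was not analysed here, so these values may not be transcript levels alone. This array carried airway, liver and fast muscle markers, with list means of 9.22, 10.55 and 9.76, whose part in the result was not tested. B6cC3-1/KccJ lay outside for 1 of 42 members, Psma1 (9.57 against a highest of 9.55), beside 4.38% of all genes.

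The constitutive subunits had mostly positive correlations with each other across strains. Over the 28 classical strains the median Spearman rho was 0.31 among the 13 genes of the 20S core (74 of 78 pairs positive). It was 0.34 among the 16 of the 19S regulator (102 of 120) and 0.24 between them (169 of 208). Pairs of all tested genes had a median of 0.006, and 51.0% of them were positive. The 5 ATPases had 0.53, with 10 of 10 pairs positive. The strains share arrays and normalisation across genes, so these values are descriptions. For BXD the medians came to 0.33, 0.30 and 0.26, with 0.46 among the ATPases. For AXB with BXA they came to 0.21, 0.17 and 0.12, with 0.02 among the ATPases. Positive pairs there numbered 70 of 78, 80 of 120 and 145 of 208, and 6 of 10 among the ATPases, beside 51.5% of all gene pairs. The highest pair of the classical strains was Psma6 with Psmb7, the trypsin-like subunit (0.87). Psmd3, a lid subunit, ran against the others in the classical strains, with a median rho of -0.20 and 6 of 28 positive. With Psmc3ip and Psme3ip1 the core genes had a median rho of -0.03 in the classical strains (9 of 26 pairs positive), which turned to 0.09 (22 of 26) with array medians subtracted. The same median was 0.13 over BXD (21 of 26) and 0.003 over AXB with BXA (13 of 26), and 0.27 and 0.22 with array medians subtracted.

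**Figure D5:**
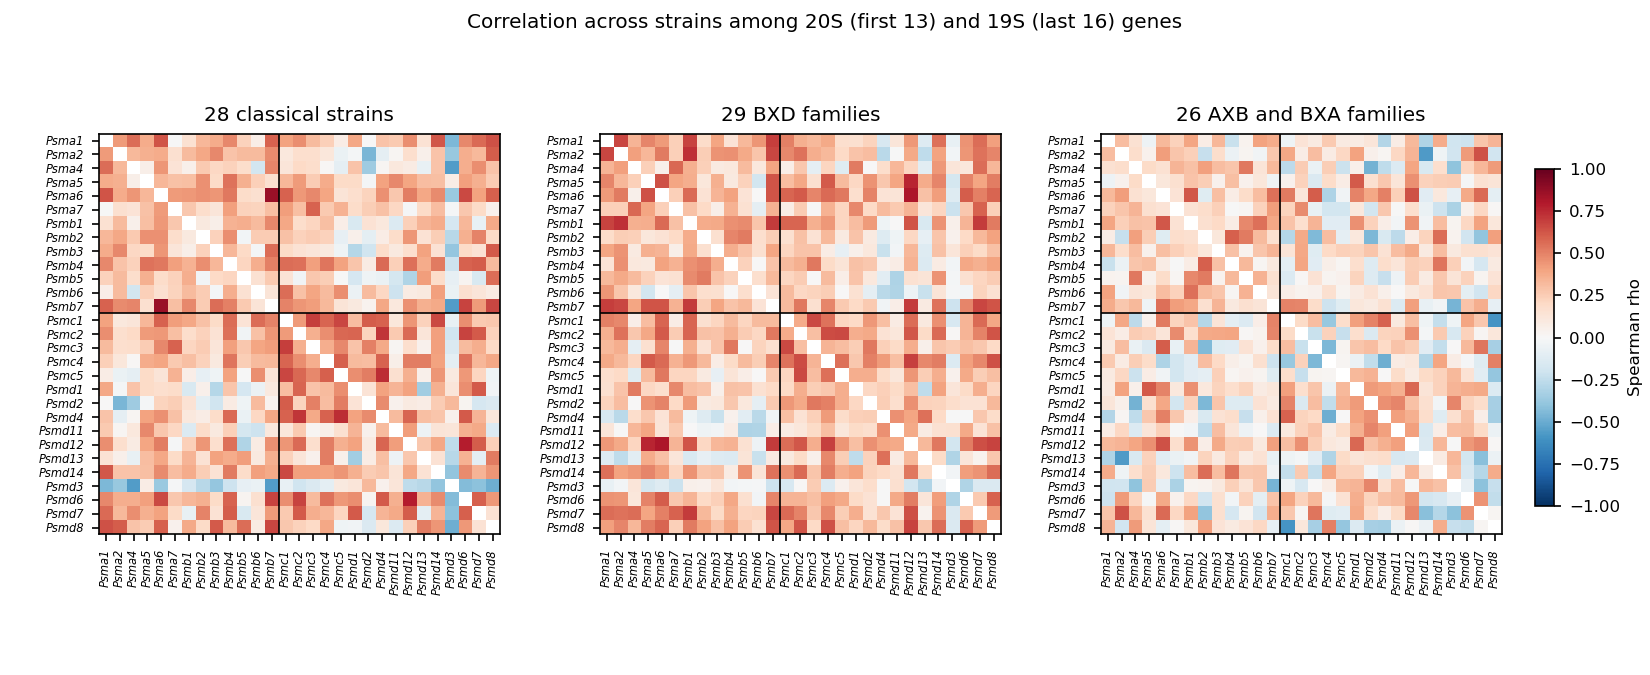
Spearman rho between pairs of 29 constitutive 20S and 19S genes (both axes) over 28 classical strains, 29 BXD families and 26 AXB and BXA families, red where positive and blue where negative, with lines between the 20S and 19S blocks. Red fills most of the first 2 panels, the row of Psmd3 is mostly blue in the first, and the third panel is paler.

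The mean of these 29 genes, each centred on its own mean, ranked the classical strains from DBA/2J (-0.21, 3 of 29 genes above their mean) and SM/J (-0.15, 4 of 29) to I/LnJ (0.15, 27 of 29). In BXD it ran from BXD42/TyJ (-0.17, 5 of 29) to BXD11/TyJ (0.23, 24 of 29). The 20S and 19S means had a rho of 0.61 in the classical strains, 0.63 among BXD families, 0.41 among those of AXB and BXA together, and 0.38 among BXH strains. The combined mean had a rho of -0.31, -0.64, -0.18 and -0.39 with the Gapdh control in the same sets. In BXD 36 of 42 members had a negative rho with that control, beside 50.1% of all genes. In the classical strains it was 29 of 42 (46.6% of all genes), in AXB with BXA 27 (43.1%) and in BXH 29 (45.1%). Psmd3 had a rho of 0.61 with that control in the classical strains, 0.66 over AXB with BXA and 0.77 over BXH, the highest of the members in each of these sets. The part of RNA quality in this shared movement was not tested.

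Relations between single genes were tested for 7 pairs in 3 sets, 21 in all, by permutation with 100000 resamples, two-sided, and adjusted over the 21, and 8 passed an adjusted p of 0.05 for Pearson's r. Psmb10 was set against Irf1, an interferon-response transcription factor. In the classical strains Pearson's r was 0.83 and Spearman's rho 0.63 (adjusted permutation p = 0.00042 and 0.00483). Without I/LnJ and SWR/J r was 0.52, and r was 0.78 and 0.87 in the lower and upper title ranges. In BXD r was 0.65 and rho 0.68 (adjusted permutation p = 0.002 and 0.00252), 0.58 without BXD27/TyJ and BXD6/TyJ, and 0.61 and 0.68 within the title ranges. In AXB and BXA r was 0.49 and rho 0.50 (adjusted permutation p = 0.028 and 0.034), 0.47 without BXA4/PgnJ and AXB24/PgnJ, and 0.38 and 0.55 within the title ranges. Without the arrays with organ markers Psmb10 and Irf1 stayed called in the classical strains and BXD, but not in AXB and BXA (r 0.58, adjusted permutation p = 0.088).

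Psme1 and Psme2, partners in the 11S ring, had r of 0.61 in BXD and 0.52 in AXB and BXA (rho 0.53 and 0.49, adjusted permutation p of r = 0.00259 and 0.022, of rho 0.019 and 0.034). Without the 2 strains farthest on Psme1 r was 0.44 and 0.43, and within title ranges it was 0.60 and 0.72, and 0.62 and 0.52. Without the arrays with organ markers the relation stayed called in BXD (r 0.72) and not in AXB and BXA (r 0.57, adjusted permutation p = 0.088). In the classical strains r was 0.42 and rho 0.54 (adjusted permutation p = 0.056 and 0.019), with r of 0.59 and 0.27 within the title ranges. Psmb10 with Psme1 had r of 0.54 and rho 0.47 in AXB and BXA (adjusted permutation p = 0.015 and 0.040; 0.50 without the 2 farthest; 0.57 and 0.56 within title ranges) and r of 0.11 in the classical strains and 0.13 in BXD. In the classical strains it was -0.13 without I/LnJ and SWR/J. In AXB and BXA the call was lost without the arrays with organ markers (r 0.53, adjusted permutation p = 0.10).

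Pomp, an assembly chaperone of the 20S core, followed Psmb5 in BXD, with r 0.53 and rho 0.52 (adjusted permutation p = 0.015 and 0.019). It was 0.42 without BXD42/TyJ and BXD14/TyJ, and 0.62 and 0.40 within the title ranges. The call was lost without the arrays with organ markers (r 0.49, adjusted permutation p = 0.10). In the classical strains r was 0.25 and in AXB and BXA 0.06. Psma1 with Psmc2, a pair from the 20S and 19S blocks, had r 0.48 and rho 0.47 in the classical strains (adjusted permutation p = 0.028 and 0.035; 0.48 without the 2 farthest; 0.41 and 0.49 within title ranges). Under all 3 alternatives run it lost the call (adjusted p from 0.058 to 0.50). In BXD r was 0.40, 0.61 and -0.17 within the title ranges, and in AXB and BXA 0.18. Nfe2l1 had r of 0.02 with Psmd12 and 0.10 with Psmc4 in the classical strains, and 0.10 and -0.06 in AXB and BXA. In BXD these were -0.26 and -0.30, with rho of -0.40 and -0.43 (adjusted permutation p = 0.058 and 0.044). Within the BXD title ranges r was -0.64 and 0.22 for Psmd12, and -0.68 and 0.20 for Psmc4, so the sign was not the same in both ranges.

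Among 7469 tested genes that are no members, those whose level most resembled the mean of the constitutive 20S genes over the 28 classical strains were Mcl1, Cops5, Mrpl42, Parl and Cops4. Their rho was 0.80, 0.78, 0.78, 0.77 and 0.76. Cops5 and Cops4 are subunits of the COP9 signalosome. In the 29 BXD families, not used for this choice, rho was 0.56, 0.69, 0.68, 0.74 and 0.57, and 212, 26, 36, 12 and 198 of the 7469 genes had a higher rho. In AXB and BXA it was 0.44, 0.63, 0.61, 0.34 and 0.56, and 284, 27, 42, 670 and 77 genes had a higher rho.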

How the data were processed

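The data are 99 hearts, each from a male of another strain, on HT_MG-430A arrays. The table the authors deposited holds log2 intensities for 22416 probe sets (89 are controls). GCOS and RMA are named, with no version, in the submitters' processing notes. RMA corrects background, normalises by quantiles and sums probes, so array medians span only 3.97 to 4.07. No genome build for the probes is given in the sources used here, and precision is limited by the number of arrays.

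Probe sets with 1 platform symbol (17783; 284 had several and 4349 none) were named, and the brightest stood for each of 11725 genes. RefSeq held 17759 of these probe sets' genes and changed 0 symbols. A gene was tested if its mean passed percentile 40 of the probe sets (3.59), which kept 7513. Groups came from strain names in the labels. The age label, 16 to 113 weeks along the sample order, goes against the protocol and was not used. Title numbers (3 to 683, meaning not given in the sources used here) served as a batch. Groups were fitted with limma 3.58.1 in R 4.3.3 (with the package data.table, version 1.17.8), with no other group in a fit, and a gene was called where its Benjamini-Hochberg adjusted p fell under 0.05. Python 3.11.15, numpy 2.4.6, scipy 1.17.1, pandas 2.3.3 and matplotlib 3.10.9 were used. On simulated data with differences of 0.1, 0.2 and 0.4 log2 units, limma recovered 4.5%, 49.3% and 86.4% in BXD against AXB with BXA. The shares were 1.5%, 16.4% and 56.1% in AXB against BXA. They were 0%, 19.4% and 69.7% in BXH against classical, and 3.0%, 20.9% and 84.8% in BXH against BXD, each over 7513 genes.

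Members and lists were chosen with earlier results of these data known. Named members were those called (the 2 of smallest p where none was), the 6 of largest and 3 of smallest SD, the 2 largest parental differences per panel, the activators, Psmf1, Psmb10 and Psmc3ip, up to 4 called genes per pathway list, the genes of the relations and the 5 nearest other genes. Alternatives were the filter, the probe sets, the scaling, trend and robust fits, normal scores, every array as its own strain, arrays with organ markers left out, the Gapdh and actin controls as covariates, and the title ranges.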

Additional observations from a re-analysis of the deposited data

How the results depend on the processing

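Precision was limited by 1 array per strain and, at levels near 3 log2 units, by the floor of the array. No paired analysis was possible because the replicate numbers were given in accession order and the labels name no shared replicates. For BXD against AXB and BXA, 2 members were called with the Gapdh control, 3 with the actin control, 2 in the lower and 2 in the upper title range, against 5. Over all genes 1099 were called, and 506 without the arrays with organ markers, 405 with the Gapdh control, 567 with the actin control, and 512 and 170 in the lower and upper title ranges. Of pathway genes 7 were called there, and 4 with probe sets averaged, 4 without the arrays with organ markers, 0 with the Gapdh control, 3 with the actin control, and 3 and 2 in the lower and upper title ranges. For BXH against BXD, 0 members were called without those arrays, with the Gapdh control or with the actin control, against 1, and 0 pathway genes without those arrays, against 2. Over all genes 799 were called, and 60 without those arrays and 513 with the Gapdh control. Only 3 BXH strains were left without those arrays, here and against the classical strains. For BXH against the classical strains 22 genes were called, and 1 without those arrays, 1 within the classical title numbers and 0 on normal scores. For AXB against BXA 0 were called, and 1 in the upper title range. The median SD of the members was 0.16 with probe sets averaged, against 0.18. The median rho of the 20S genes was 0.39 with array medians subtracted, against 0.31. Relations called fell from 8 to 3 without the arrays with organ markers (Psmb10 with Irf1 in the classical strains and BXD, and Psme1 with Psme2 in BXD). In CAST/EiJ 13 members lay outside the classical range with array medians subtracted and 16 with probe sets averaged, against 15; these settings were chosen after seeing the data. Sign was followed for called members and, where none was called, for the 2 of smallest p. None of these differences changed sign under these alternatives, the second probe set of Psmd9 aside. No correlation called by Pearson's r changed sign either. Other members did. With the Gapdh control positive differences went from 17 to 24 of 42 for BXD against AXB and BXA, and from 24 to 13 for BXH against BXD. For BXH against the classical strains they went from 9 to 21 without the arrays with organ markers, which left 3 BXH and 18 classical strains. No setting called a member for AXB against BXA or BXH against the classical strains. Where a call was lost, the cause was not tested.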

Other observations

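Psme3, the nuclear activator, ran from 7.08 (LP/J) through 7.40 to 7.79 (NON/ShiLtJ) in the classical strains, and Psme1 from 9.38 (SEA/GnJ) through 9.60 to 10.04 (BUB/BnJ). Psme3 was highest in BXD33/TyJ at 7.90, and Psme1 was lowest in BXD28/TyJ at 8.82. Psmf1 had an SD of 0.28 over the classical strains, 0.21 over BXD, 0.11 over AXB with BXA and 0.32 over BXH. For Psmg4 the SDs were 0.39, 0.34, 0.43 and 0.36. Across the 3 AXB19 arrays the range of a member had a median of 0.26 log2 units, the largest being 0.79 for Psmd11 (1 of these arrays carried organ markers), and between the 2 BXD24 arrays a median of 0.14, the largest being 0.45 for Psmg4.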
